A study of Homo sapiens with 4 samples.

Results

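The long noncoding RNAs (lncRNAs) described here are the host genes of small nucleolar RNAs (snoRNAs): every gene with an SNHG number as its symbol, together with GAS5, DANCR, ZFAS1 and EPB41L4A-AS1. The group was chosen with earlier results of these data known. Its members were found by gene symbol, with no use of their counts, and 32 of the 60719 listed genes met that rule. GENCODE release 29 gave all of them except SNHG32 an lncRNA type, and SNHG32 a protein-coding one. Their counts come from RNA immunoprecipitation with antibodies to the V5 tag on KIF5A, a kinesin heavy chain that carries cargo along microtubules. The cells were SKNAS (SK-N-AS), a human neuroblastoma cell line. The cells carried a transfected construct of either wild-type (WT) KIF5A or the mutant that the labels call d27, from a series on mutations linked to amyotrophic lateral sclerosis, and were used 24 hours after transfection. Each construct had 2 anti-V5 precipitates, with no label stating separate cultures. The p-values therefore measure the spread between libraries alone, which may be technical. No input or mock precipitate is used here, so less RNA bound to KIF5A and less of a transcript in the cells cannot be told apart.

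A snoRNA host is spliced like a messenger RNA, and its introns are trimmed down to snoRNAs, which guide the chemical modification or cleavage of ribosomal and other RNAs. Box C/D snoRNAs guide 2'-O-methylation and box H/ACA snoRNAs guide pseudouridylation. The spliced exons that remain often reach the cytoplasm, where ribosomes can engage their short reading frames, and several, GAS5 and SNHG1 among them, are known substrates of nonsense-mediated decay (NMD). Many hosts, coding and noncoding, begin with a terminal oligopyrimidine (TOP) tract, a C followed by C and T bases at the first transcribed base, which is also the mark of ribosomal protein genes.

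The starts of the hosts are shown because they are what the hosts are best known to share. Each line holds 10 bases before and 20 bases from the RefSeq start (GRCh38.p14), 5′ to 3′, and capitals mark a TOP-like run, defined as a C within 5 bases of the start followed by at least 4 C or T bases on the transcribed strand.
SNHG16 (chr17:76557754-76557783, plus strand): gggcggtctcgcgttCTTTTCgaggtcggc
SNHG29 (chr17:16438977-16439006, plus strand): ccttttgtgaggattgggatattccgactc
GAS5 (chr1:173869026-173869055, minus strand): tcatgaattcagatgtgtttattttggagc
SNHG1 (chr11:62855866-62855895, minus strand): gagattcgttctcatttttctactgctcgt
SNHG5 (chr6:85678714-85678743, minus strand): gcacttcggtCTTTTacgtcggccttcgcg
SNHG8 (chr4:118278752-118278781, plus strand): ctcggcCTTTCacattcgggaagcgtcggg
DANCR (chr4:52712384-52712413, plus strand): tgcgcgccccgCCCTTgcccagagtcttcc
SNHG4 (chr5:139274091-139274120, plus strand): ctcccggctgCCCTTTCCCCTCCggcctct
SNHG12 (chr1:28581854-28581883, minus strand): gcttcagcgcCCTTTCTCCCCgccgcattc
ZFAS1 (chr20:49278632-49278661, plus strand): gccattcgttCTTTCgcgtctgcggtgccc
Of the 28 hosts with an entry in the RefSeq table, 13 (46.4%) held such a run, against 7408 of 35116 promoters of the same length (21.1%) and 58 of 80 ribosomal protein gene promoters (72.5%). The run began at the first base in SNHG5, SNHG4, SNHG12 and ZFAS1 and 5 bases after it in SNHG16. The windows without a run include those of GAS5, SNHG14, SNHG27 and SNHG3. Their RefSeq starts lie before the GENCODE 29 genes of those names, so these windows are those of other starts. These matches describe letters in a window and are not mapped transcription starts. SNHG6, SNHG9, SNHG15 and SNHG25 had no entry.

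Totals over genes ranged from 8142869 to 18335151 counts per library, and reads that HTSeq set aside as outside genes, ambiguous or not uniquely aligned made up 25.9% to 47.6% of the entries in a table. The d27 libraries were closer to each other than the WT libraries were. On a log2 scale of CPM (counts per 1000000 counts of the library, with TMM-scaled library sizes), Pearson r across 14909 genes was 0.963 for the d27 pair and 0.928 for the WT pair. WT replicate 1 had an r of 0.918 and 0.93 with d27 replicates 1 and 2, and WT replicate 2 had 0.866 and 0.887. Among markers of the line, HAND2, a transcription factor of sympathetic neurons, had 424 to 697 CPM and VIM, which encodes vimentin, 1182.5 to 1855.5 CPM, while the catecholamine enzyme genes TH and DBH were at 0 to 0.567 and 0.271 to 1.47 CPM. Of 4 markers of other cell types, EPCAM had no counts, ALB was at 0 to 0.0927 CPM, PECAM1 at 0.217 to 1.47 CPM, and the leukocyte gene PTPRC at 79.5 to 189 CPM. PTPRC fell in d27 (log2 fold change -0.96 ± 0.24 SE, edgeR adjusted p = 0.0433), a call lost when any 1 of the 4 libraries was left out (adjusted p 0.0504 to 0.204) and with library totals as the scaling (0.077), and its part in the results below was not tested.

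The hosts as a group did not move one way. Of the 32, 28 passed the filter on low counts, and of these SNHG16 and SNHG29 were higher in d27 and 26 did not pass the test (7.14% called, against 11.7% of all 14909 genes tested, 8.00% higher and 3.70% lower). No host was lower at an edgeR adjusted p under 0.05. At an unadjusted p under 0.05, 6 hosts were higher and 2 lower (30.7% of all genes passed that level, 17.0% higher and 13.6% lower). DESeq2 called 3 higher and 1 lower of the 22 to which it gave an adjusted p, beside 24.1% of 11774 genes (14.6% higher, 9.50% lower). The median log2 fold change of the tested hosts was -0.21, with 10 above 0 and 18 below, beside a median of 0.00 over all genes tested. For lncRNA genes outside the list, 15 of 1324 tested were higher and 16 lower (2.34% called), with a median of -0.39. Both d27 libraries were above both WT libraries in 8 hosts and below them in 9, and the groups overlapped in 11; of all tested genes, 61.2% separated in this way (31.4% above, 29.8% below).

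**Figure D1:**
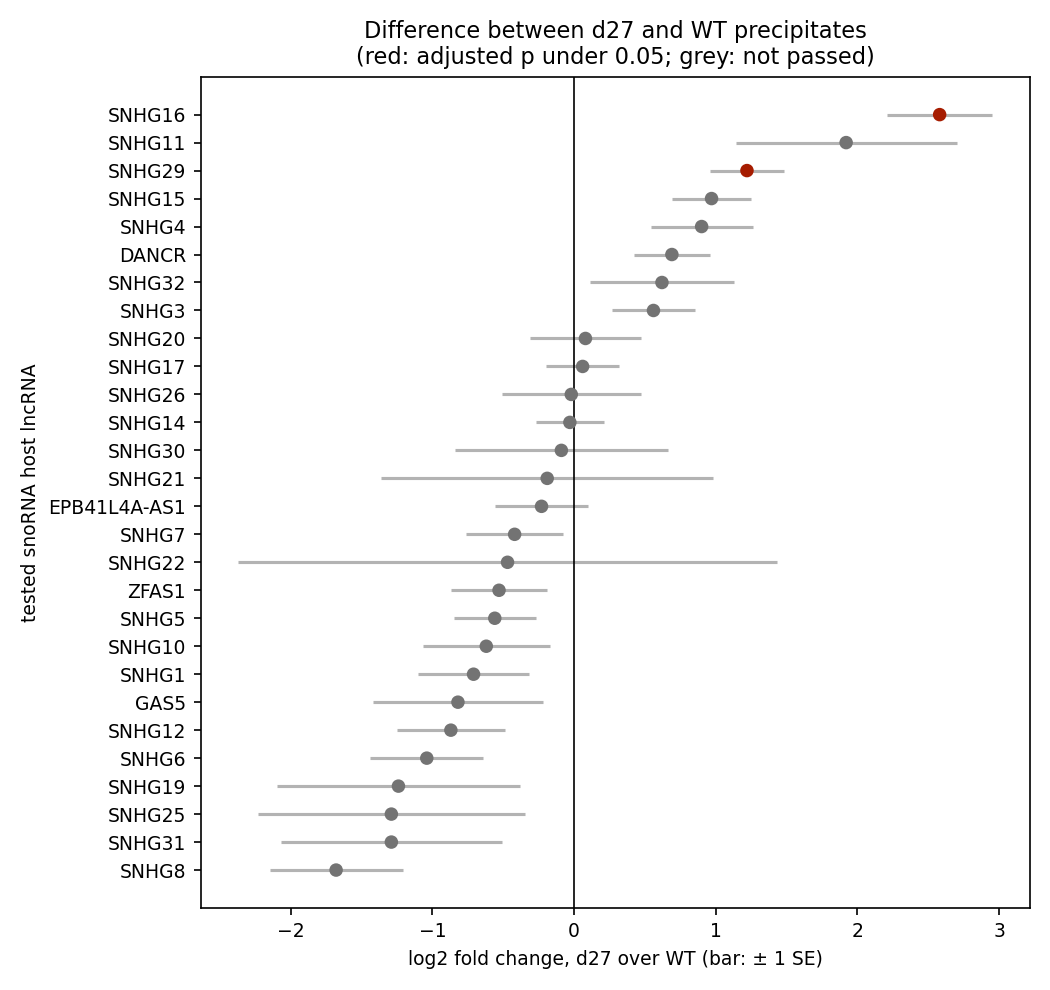
Log2 fold change of d27 over WT for the 28 tested hosts (x axis), ordered by value, with bars of ± 1 SE from the fit across all genes. SNHG16 and SNHG29, in red, passed the adjusted threshold of 0.05, and 18 of the 28 values lie below 0.

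SNHG16, the host of the box C/D snoRNAs SNORD1A, SNORD1B and SNORD1C (GRCh38 chromosome 17, 76557766 to 76565348, plus strand), had the largest rise among the tested hosts. The 2 WT libraries, in replicate order here and throughout, held 1190 and 634 counts of it and the d27 libraries 11151 and 6454. Scaled, that is 135 and 65.7 CPM in WT against 605 and 598 CPM in d27. Both d27 libraries stood far above both WT libraries, and the d27 pair differed from each other by much less than the WT pair. The mean rose from 100.4 ± 49.0 to 602 ± 4.78 CPM (SD, n = 2 each), a 6.00-fold difference (log2 fold change 2.58 ± 0.37 SE, edgeR adjusted p = 0.0103). It stayed past the threshold in all 13 alternatives, with log2 fold changes of 2.18 to 3.24. The gene that overlaps its exons on the opposite strand, ENSG00000284526, had at most 60 counts in a library.

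SNHG29, a host of SNORD49A, SNORD49B and SNORD65 on chromosome 17 (16438822 to 16478678, plus strand), was the other gene that passed. Its level was 41.7 and 48.7 CPM in WT and 88.6 and 122 CPM in d27. The groups did not overlap, and the mean went from 45.2 ± 4.92 to 105 ± 23.5 CPM (SD, n = 2 each), 2.33-fold (log2 fold change 1.22 ± 0.26 SE, edgeR adjusted p = 0.0293). The call was lost without d27 replicate 2 (log2 fold change 1.00, edgeR adjusted p = 0.0761); over the 13 alternatives the adjusted p lay between 0.000527 and 0.0761. LRRC75A, which overlaps it on the opposite strand, had at most 25 counts in a library.

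A further set of hosts was higher in both d27 libraries than in both WT libraries without passing the test. SNHG15, which holds SNORA9 and is known as a short-lived transcript (chromosome 7), had 12.8 and 13.0 CPM in WT and 24.4 and 26.2 CPM in d27 (log2 fold change 0.97 ± 0.28 SE, edgeR adjusted p = 0.0625). Its replicates lay close together in both groups, and 4 of 13 alternatives put it past the threshold (edgeR or DESeq2 adjusted p between 0.0321 and 0.279). SNHG4, which overlaps 626 exonic bases of MATR3 on the same strand of chromosome 5 and holds box H/ACA snoRNAs, had 17.1 and 9.12 CPM in WT and 26.1 and 22.9 CPM in d27 (0.90 ± 0.36, edgeR adjusted p = 0.138). It passed without WT replicate 1 and with the replicate block (range of adjusted p 0.0041 to 0.486). The overlapping MATR3 entry had at most 5 counts in a library. SIL1, which overlaps SNHG4 on the opposite strand, had 143 to 298 counts per library against 88 to 482 for SNHG4. Reads of these overlaps may not be told apart, because the strand setting of the counting is not given. DANCR, the host of SNORA26 on chromosome 4, had 26.3 and 21.0 CPM in WT and 36.7 and 39.5 CPM in d27 (0.69 ± 0.27, edgeR adjusted p = 0.134).

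SNHG3 is the host of SNORA73A and SNORA73B and overlaps RCC1 on the same strand of chromosome 1, where reads common to both genes cannot be assigned. It had 18.8 and 26.7 CPM in WT and 32.4 and 34.9 CPM in d27 (log2 fold change 0.56 ± 0.29 SE, edgeR adjusted p = 0.231). SNHG11, a scarce host of box H/ACA snoRNAs on chromosome 20, had 30 and 5 counts in WT and 125 and 87 in d27. Its log2 fold change of 1.92 ± 0.78 SE did not pass (edgeR adjusted p = 0.140), and became 3.86 without WT replicate 1 and 1.14 without WT replicate 2 (adjusted p 0.000172 to 0.275 over 13 alternatives). Among these hosts the WT libraries lay close together for SNHG15 and far apart for SNHG4 and SNHG11.

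GAS5, the host of a series of box C/D snoRNAs and a transcript that accumulates when growth stops, was the most abundant host in both WT libraries. The gene lies on chromosome 1 (173863900 to 173868882, minus strand). It had 5384 and 2717 counts in WT and 2013 and 4284 in d27, or 611 and 282 CPM against 109 and 397 CPM. The groups overlapped: d27 replicate 2 lay between the WT libraries and d27 replicate 1 was the lowest of the 4. With a log2 fold change of -0.82 ± 0.60 SE, GAS5 did not pass (edgeR adjusted p = 0.392). It was -2.00 without d27 replicate 2, which passed (edgeR adjusted p = 0.00113), and -0.12 without WT replicate 1, with adjusted p between 0.00113 and 0.958 over 13 alternatives.

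SNHG8, a short host of SNORA24 on chromosome 4 (118278709 to 118279823, plus strand), had the lowest log2 fold change of the tested hosts. It had 312 and 743 counts in WT and 210 and 259 in d27, and mean levels of 56.2 ± 29.4 and 17.7 ± 8.92 CPM (SD, n = 2 each). Both d27 libraries lay below both WT libraries once scaled, and the WT libraries were further from each other than the nearest libraries of the 2 groups were. The log2 fold change of -1.68 ± 0.47 SE did not pass (edgeR adjusted p = 0.0578). It passed in 8 of 13 alternatives, with adjusted p between 5.12e-05 and 0.168 and log2 fold changes from -2.27 to -0.99.

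The other hosts with lower d27 values differed by less. SNHG1, which carries a cluster of box C/D snoRNAs including SNORD22 and SNORD25 to SNORD28 on chromosome 11, had 102 and 56.0 CPM in WT and 34.3 and 62.7 CPM in d27 (log2 fold change -0.71 ± 0.39 SE, edgeR adjusted p = 0.254). Its groups overlapped, with WT replicate 1 highest and d27 replicate 1 lowest, as in GAS5. SNHG5, the host of SNORD50B on chromosome 6, had 53.9 and 48.7 CPM in WT and 27.4 and 42.3 CPM in d27 (-0.56 ± 0.29, edgeR adjusted p = 0.236, and -0.80 with 0.0198 under a replicate block and an offset for GC content and exon length). SNHG12, which holds SNORD99 and several box H/ACA snoRNAs on chromosome 1, had 14.3 and 16.5 CPM in WT and 6.13 and 10.8 CPM in d27 (-0.87 ± 0.38, edgeR adjusted p = 0.169, and -1.13 with 0.028 under the same block and offset). In both of these genes d27 replicate 1 was the lowest library.

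SNHG6, the host of SNORD87, had 9.53 and 11.7 CPM in WT and 4.67 and 5.65 CPM in d27 (log2 fold change -1.04 ± 0.40 SE, edgeR adjusted p = 0.122). ZFAS1, a host of SNORD12 family members antisense to ZNFX1 on chromosome 20, had 23.3 and 14.8 CPM in WT and 12.4 and 14.1 CPM in d27 (-0.53 ± 0.34, edgeR adjusted p = 0.329). ZNFX1 had 1363 to 3639 counts per library against 143 to 228 for ZFAS1, and the strand setting of the counting is not given in the sources used here, so reads of the overlap may not be told apart. The separation of ZFAS1 rests on WT replicate 2 and d27 replicate 2, which differ by less than 1 CPM.

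SNHG14 and SNHG17 were abundant and had log2 fold changes near 0. SNHG14, the long imprinted transcript of chromosome 15 that carries the SNORD115 and SNORD116 clusters and runs antisense to UBE3A, had 109.6 and 94.3 CPM in WT and 111 and 88.7 CPM in d27. Its log2 fold change of -0.03 ± 0.24 SE (edgeR adjusted p = 0.951) became 0.78 with the GC and exon-length offset (edgeR adjusted p = 0.0624) and 0.80 with the block and offset, which passed (edgeR adjusted p = 0.00673). UBE3A overlaps 198 of the 43324 exonic bases of SNHG14. It had 1051 to 2963 counts per library against 910 to 2047 for SNHG14, and reads of the overlap may not be told apart. SNHG17, the host of the SNORA71 family on chromosome 20, had 49.3 and 64.3 CPM in WT and 63.0 and 55.8 CPM in d27 (0.06 ± 0.26, edgeR adjusted p = 0.891, between -0.14 and 0.29 over 13 alternatives).

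**Figure D2:**
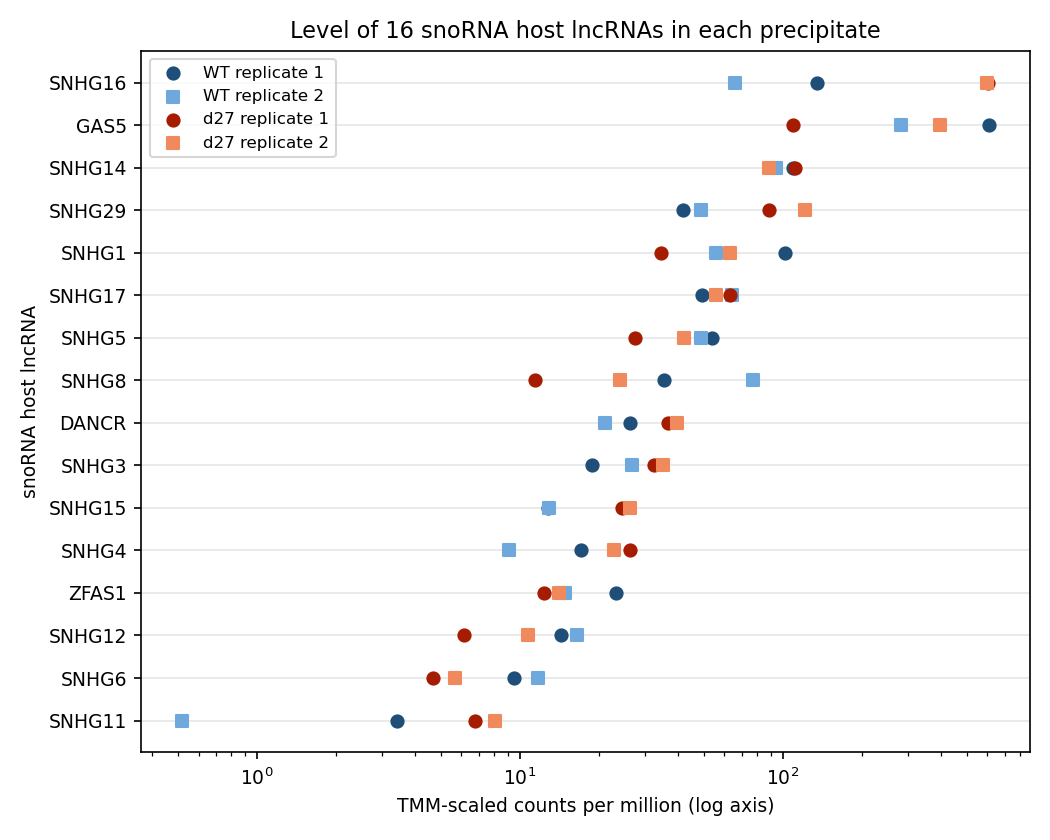
Level of 16 hosts in each of the 4 libraries, in TMM-scaled CPM on a log axis, with WT in blue, d27 in red and orange, circles for replicate 1 and squares for replicate 2. SNHG16 and SNHG29 have both d27 points to the right of both WT points, while the d27 points of GAS5 lie at 109 and 397 around the WT value of 282.

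The remaining 12 tested hosts, SNHG7, EPB41L4A-AS1, SNHG20, SNHG10, SNHG26, SNHG32, SNHG19, SNHG31, SNHG30, SNHG25, SNHG21 and SNHG22, had mean levels of 0.690 to 18.8 CPM. None of the 12 passed (lowest edgeR adjusted p = 0.299), none had an unadjusted p under 0.05 and DESeq2 called none of those to which it gave an adjusted p. Their log2 fold changes ran from -1.29 to 0.62, with 10 below 0 and 2 above. The 4 hosts that the filter removed were SNHG28 and SNHG18, with no counts in any library, SNHG27, with 7 counts in WT replicate 2 alone, and SNHG9, with 8 counts in d27 replicate 1 alone. A library with no counts of a gene could still hold up to 3 at these depths, equal to 0.164 to 0.368 CPM before TMM scaling. This limit, like the intervals given for shares, covers counting error alone, because the reads have no molecular identifiers.

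Per kilobase of exon (GENCODE 29, all exons of a gene merged), GAS5 had the highest mean level over the 4 libraries, at 96.3 CPM per kilobase, followed by SNHG16 at 65.4 and SNHG8 at 40.0. SNHG29 (11.1 to 32.4 over the libraries) came next, then SNHG1 with a mean of 17.0, SNHG5 with 15.3, SNHG17 with 13.9 and DANCR with 13.5 on that scale. The order differed between constructs: in WT, GAS5 stood at 168 and 77.5 CPM per kilobase and SNHG16 at 25.2 and 12.3, while in d27 GAS5 stood at 30.1 and 109 and SNHG16 at 113 and 112. GAS5 was thus above SNHG16 in both WT libraries and below it in both d27 libraries. SNHG8, at 38.3 and 83.4 in WT, was not separated from GAS5 there, and the ranges from SNHG1 to DANCR overlapped. SNHG14, whose mean of 100.9 CPM was behind only SNHG16 and GAS5, stood at 2.33 CPM per kilobase over 43324 bases of merged exons.

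As a sum, the 32 hosts took 0.144% and 0.0827% of the counts of the WT libraries and 0.126% and 0.166% of those of the d27 libraries (exact binomial 95% intervals 0.141% to 0.147%, 0.0810% to 0.0845%, 0.124% to 0.128% and 0.164% to 0.169%). The groups overlapped, with means of 0.113% ± 0.0433 in WT and 0.146% ± 0.0284 in d27 (SD, n = 2 each). The difference of 0.0328 percentage points had an exact two-sided permutation p of 0.667; the smallest p this design allows is 0.333. The make-up of the sum differed more than its size. SNHG16 held 10.2% and 7.09% of all host counts in WT and 48.2% and 37.0% in d27. GAS5 held 45.9% and 30.4% in WT and 8.71% and 24.6% in d27. SNHG16 was thus the leading host in both d27 libraries and GAS5 in both WT libraries. Without SNHG16 the remaining share was 0.129% and 0.0769% for WT and 0.0653% and 0.105% for d27, and the difference changed sign to -0.0181 percentage points.

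**Figure D3:**
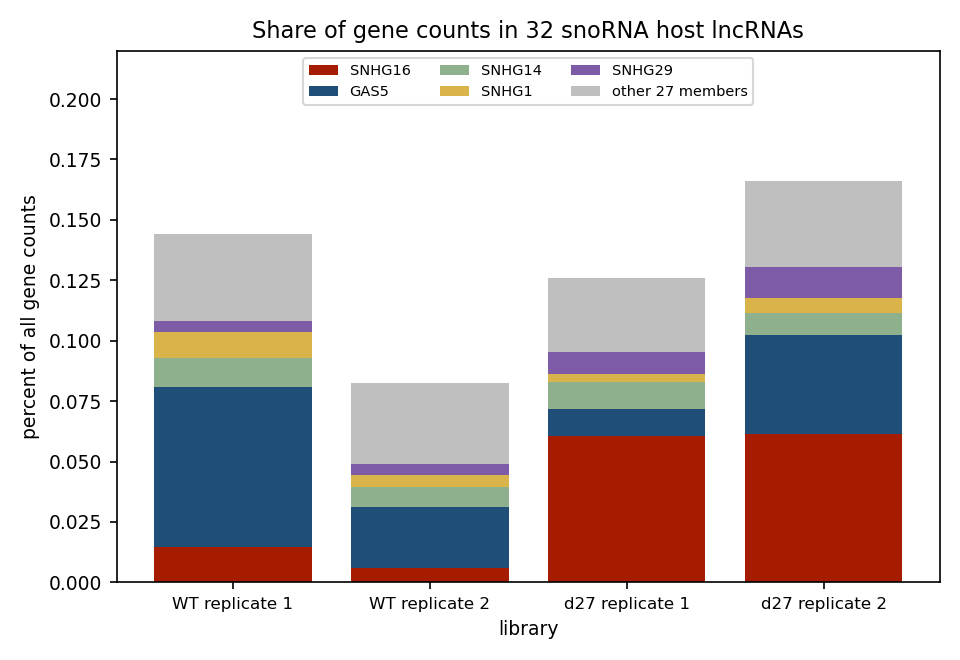
Share of all gene counts taken by the 32 hosts in each library, in percent, with bars from 0 split into SNHG16, GAS5, SNHG14, SNHG1, SNHG29 and the other 27 hosts. The totals of 0.144%, 0.0827%, 0.126% and 0.166% overlap between groups, while the SNHG16 segment grows from 10.2% and 7.09% of the bar in WT to 48.2% and 37.0% in d27.

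The snoRNAs inside the hosts showed a different picture from the hosts. By GENCODE 29 positions, 144 snoRNA genes listed in the counts lie wholly within 30 of the hosts on the same strand, 84 of them in SNHG14. GAS5 and SNHG27 held none by this rule, so the snoRNA values here do not cover GAS5. Of the 144, 50 overlap an exon of some host transcript, and 49 of these had no counts in any library. Of the 23 wholly intronic ones outside SNHG14, 11 had at least 10 counts over the 4 libraries. HTSeq sets aside reads that overlap more than 1 gene, a class that held 2.80% to 3.30% of table entries; how many of these came from snoRNAs was not tested. Values of the SNORA71, SNORA73 and SNORA74 families are uncertain, because the counting could split reads among near-identical copies.

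SNORA73B and SNORD99, which had the most counts, are printed from the GENCODE 29 transcripts (GRCh38), 5′ to 3′. Capitals mark the ACA box near the 3′ end of the H/ACA member and the D box, CTGA, of the C/D member.
SNORA73B (chr1:28508559-28508762, plus strand): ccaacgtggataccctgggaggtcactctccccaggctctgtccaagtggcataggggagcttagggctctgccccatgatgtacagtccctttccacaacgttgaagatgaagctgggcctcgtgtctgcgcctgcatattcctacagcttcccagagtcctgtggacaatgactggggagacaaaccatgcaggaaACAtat
SNORD99 (chr1:28578749-28578822, minus strand): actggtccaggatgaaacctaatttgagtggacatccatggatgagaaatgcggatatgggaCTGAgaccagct
SNORA73B, also known as U17 and needed for cleavage of the ribosomal RNA precursor, had 1438 and 1171 CPM in WT and 478 and 924 CPM in d27 (log2 fold change -0.90 ± 0.36 SE, edgeR adjusted p = 0.140), while its host SNHG3 had a positive log2 fold change of 0.56. SNORA73B was lower by DESeq2 (adjusted p = 0.031) and without d27 replicate 2 (-1.42, edgeR adjusted p = 0.0438), and stood at -0.33 with the GC and exon-length offset. SNORD99, in SNHG12, had 115 and 76.6 CPM in WT and 9.87 and 53.6 CPM in d27 (-1.61 ± 0.69, edgeR adjusted p = 0.171). SNORD99 passed with the offset (-1.02, edgeR adjusted p = 0.0457), with the block and offset (-1.06, 0.00217) and without d27 replicate 2 (-3.25, 1.52e-07), and its log2 fold change ran from -3.25 to -0.82 over 13 alternatives. In both snoRNAs the groups did not overlap and d27 replicate 1 was the lowest library. Further down in counts, SNORA74D, in SNHG4, and SNORA71B, in SNHG17, had log2 fold changes of -0.85 ± 0.55 and -1.24 ± 0.62, and neither passed (edgeR adjusted p = 0.333 and 0.214). Without d27 replicate 2 both passed (-1.98, edgeR adjusted p = 0.00347, and -2.74, 0.0002). SNORA71B also passed with no filter (0.0124) and with the block and offset (0.0215), and SNORA74D was at -0.27 with the offset.

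All 10 tested snoRNAs of the hosts had a log2 fold change below 0, with a median of -1.09. None passed edgeR, beside 11.7% of all genes tested (3.70% lower). At an unadjusted p under 0.05, 3 were lower (13.6% of all genes), and DESeq2 called 2 lower (9.50% of the genes given an adjusted p). Of the 110 tested snoRNA genes outside the hosts, 97 were below 0, and 20 were called lower and 1 higher (19.1% called). Their median of -1.18 was close to that of the snoRNAs in the hosts. The snoRNAs inside the hosts summed to 0.198% and 0.127% of all counts for WT and to 0.0541% and 0.118% for d27 (exact two-sided permutation p = 0.333, the smallest that 2 against 2 can give). All snoRNA genes together took 0.442% and 0.286% in WT and 0.0987% and 0.23% in d27. The median of the 10 was -0.48 without d27 replicate 1 and -2.74 without d27 replicate 2, so its size depends on which d27 library is used. With the GC and exon-length offset it was -0.64.

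The ratio of snoRNA to host counts within a library needs no scaling between libraries, but it does not remove GC or length bias that differs between them. With the GC and exon-length offset, log2 fold changes went from -0.90 to -0.33 for SNORA73B and from 0.56 to 0.30 for SNHG3. They went from -0.85 to -0.27 for SNORA74D and from 0.90 to 0.69 for SNHG4. The part of such bias in the ratios was not tested. For SNORA73B and SNHG3 the ratio was 76.3 and 43.8 in WT and 14.7 and 26.4 in d27. For SNORA74D and SNHG4 it was 3.42 and 3.57 in WT and 0.432 and 1.72 in d27. For SNORD99 and SNHG12 it was 8.06 and 4.65 in WT and 1.61 and 4.98 in d27, so these groups overlapped. For SNORD1B and SNHG16 it was 0.0118 and 0.0221 in WT and 8.97e-05 and 0.00263 in d27, where the first d27 value rests on 1 snoRNA count. The d27 ratios lay below both WT ratios for these snoRNAs of SNHG3, SNHG4 and SNHG16. They overlapped for SNHG12 and for SNHG25, whose SNORD104 had ratios of 12.4 and 10.9 in WT and 7.62 and 13.6 in d27. Ratios also lay below both WT values for SNORA71B and SNHG17, SNORD12C and ZFAS1, and SNORD93 and SNHG26. They overlapped for SNORA13 and EPB41L4A-AS1. No share over all features was made for such ratios. By level, 62 of the 110 tested snoRNA genes outside the hosts had both d27 libraries below both WT libraries. Of all genes tested, 29.8% did. In the SNHG16 ratio the host was itself called higher in d27. SNORD1B levels overlapped between groups, at 1.59 and 1.45 CPM in WT and 0.0542 and 1.58 CPM in d27. This snoRNA did not pass (-0.96 ± 1.32 on the log2 scale, edgeR adjusted p = 0.666). SNORA74D levels overlapped too, at 58.5 and 32.5 CPM in WT and 11.3 and 39.4 CPM in d27.

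**Figure D4:**
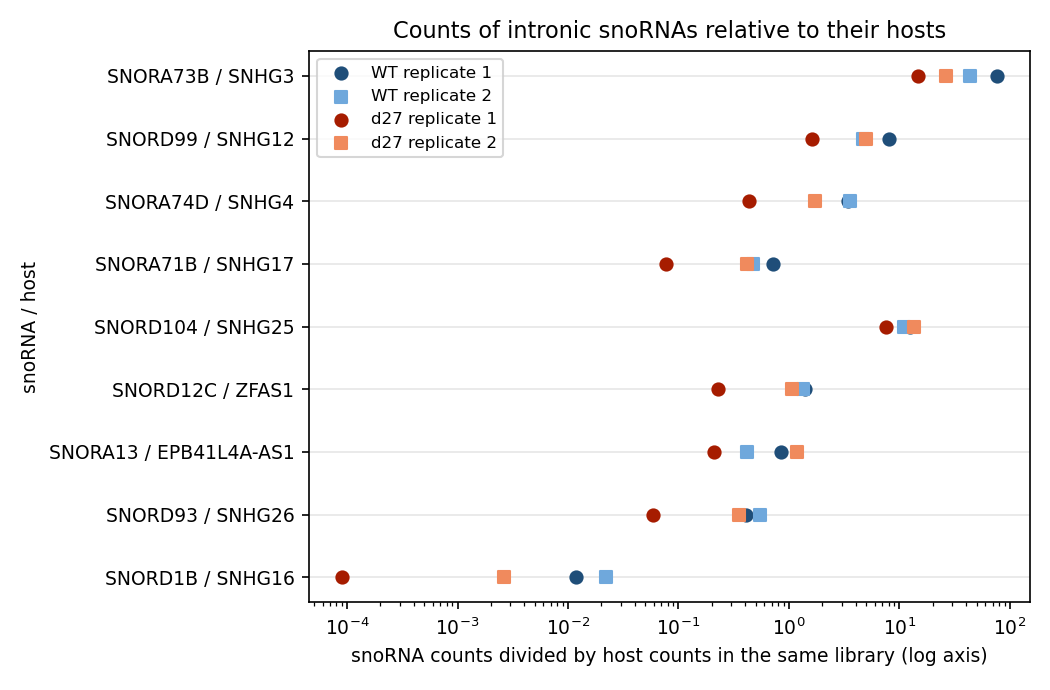
Counts of 9 of the 10 tested snoRNAs divided by the counts of its host in the same library, on a log axis, with WT in blue and d27 in red and orange. SNORA73B over SNHG3 goes from 76.3 and 43.8 in WT to 14.7 and 26.4 in d27, and d27 replicate 1 is the lowest point in every row.

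Genes tied to the hosts by known biology were read from lists chosen for that biology, some of which share members with each other. Of all genes tested, edgeR called 8.00% higher and 3.70% lower. At an unadjusted p under 0.05, 17.0% were higher and 13.6% lower, and DESeq2 called 14.6% higher and 9.50% lower. Of 40 protein-coding snoRNA hosts, which are mostly ribosomal protein and translation factor genes, 3 fell, none rose and 37 did not pass (7.50% called; 1 was higher and 14 lower at an unadjusted p under 0.05, and 1 higher and 11 lower by DESeq2), with a median log2 fold change of -0.38. RPLP2 went from 666 ± 11.3 to 240 ± 37.6 CPM (SD, n = 2 each; log2 fold change -1.48 ± 0.26 SE, edgeR adjusted p = 0.0169), and RPL23A (-0.95 ± 0.24) and RPL13 (-0.92 ± 0.23) also fell. All 3 have processed pseudogenes, so their counts are uncertain where reads match several copies. Of 21 tested TOP mRNAs without an RPL or RPS symbol, 2 fell, none rose and 19 did not pass (median -0.43; 3 higher and 6 lower at an unadjusted p under 0.05, 3 higher and 5 lower by DESeq2). They were FAU (156 ± 8.15 to 65.3 ± 6.41 CPM, -1.26 ± 0.23), which encodes a ribosomal protein fused to a ubiquitin-like domain, and COX7C (84.0 ± 0.131 to 40.0 ± 8.66 CPM, -1.07 ± 0.26), a respiratory chain subunit. The members of these lists thus had medians below 0, as did the noncoding hosts, the lncRNA genes outside them (-0.39) and each list below. SNHG16, SNHG11, SNHG29, SNHG15 and SNHG4 lay above the highest value among the coding hosts (0.75) and among the TOP mRNAs (0.85). Of these, only SNHG16 and SNHG29 passed the test.

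Of 20 NMD factors, ETF1, the release factor that ends translation, rose from 234 ± 0.728 to 507 ± 79.7 CPM (log2 fold change 1.12 ± 0.25 SE, edgeR adjusted p = 0.0323). SMG1, the kinase that phosphorylates UPF1, fell from 485 ± 38.2 to 241 ± 5.76 CPM (-1.01 ± 0.24, edgeR adjusted p = 0.0361). Near-identical copies of part of SMG1 make its counts uncertain. Of the 20 NMD factors, 18 did not pass (10.0% called, median -0.28). At an unadjusted p under 0.05, 2 of them were higher and 4 lower, and DESeq2 called 2 higher and 2 lower. Of 24 snoRNP proteins and assembly factors, the paired ATPases RUVBL1 (172 ± 9.96 to 81.7 ± 17.5 CPM, -1.08 ± 0.25) and RUVBL2 (324 ± 44.5 to 138 ± 19.2 CPM, -1.23 ± 0.25), which act in box C/D snoRNP assembly, fell, and 22 did not pass, with none higher (2 higher and 4 lower at an unadjusted p under 0.05, 1 higher and 3 lower by DESeq2; median -0.08). Among 16 other tested lncRNAs, FTX, a transcript of the X-inactivation centre, fell (73.5 ± 8.23 to 31.2 ± 0.075 CPM, -1.24 ± 0.25), none rose (2 higher and 5 lower at an unadjusted p under 0.05, 1 higher and 3 lower by DESeq2) and 15 did not pass, with a median of -0.56. All 10 calls in these lists were lost without d27 replicate 1, where 19 of the listed genes had an unadjusted p under 0.05. RPLP2, FAU and RUVBL2 held in the other 12 alternatives. RUVBL1, ETF1 and FTX held in 11 of 13, COX7C in 10, RPL13 and RPL23A in 9 and SMG1 in 7. SMG1 was at -0.51 with the GC and exon-length offset (edgeR adjusted p = 0.142).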

How the data were processed

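Trizol was used to recover RNA from the anti-V5 eluates, followed by rRNA depletion and a stranded library kit, per the labels' protocols. HTSeq, DESeq2 and GRCh38 are named in the submitters' processing notes. An aligner, versions, a strand setting and an annotation release were not given in the sources used here. Each deposited table holds raw read counts per Ensembl gene for 1 library. Library sizes and tests exclude HTSeq's summary entries (47.6% and 47.3% of entries in WT, 25.9% and 36.8% in d27).

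Ensembl IDs were matched to symbols by a gene name table, and types, positions and exon lengths from GENCODE release 29 (58444 of 60719 genes). The test was edgeR 4.0.16 (R 4.3.3): TMM, filterByExpr by group (minimum count 10, minimum total 15), robust glmQLFit and glmQLFTest on group alone, with Benjamini-Hochberg adjustment over 14909 genes and a threshold of 0.05. To obtain an SE, the estimate was divided by the root of its F statistic. Alternatives were DESeq2 1.42.0, its size factors, library totals, other filters, a non-robust fit, a replicate block, a GC and exon-length offset (values for 14815 tested genes), and leaving out each library.

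The members and lists were chosen with earlier results of these data known. Members given in full are those called and the 10 with the highest mean CPM; SNHG15, SNHG4, SNHG6, SNHG11, SNHG12 and ZFAS1 were added after their values were seen. Up to 3 called genes per list, by lowest p, and the 5 snoRNAs with the most counts were to be named; 1 of these is not reported here. SNORD1B, SNORD104, SNORD12C, SNORD93 and SNORA13 were added after their values were seen.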

Additional observations from a re-analysis of the deposited data

How the results depend on the processing

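SNHG16 kept its direction and call in all 13 alternatives, and SNHG29 in all except the one without d27 replicate 2. In 4 of these alternatives a construct keeps 1 library, which is assumed to vary like those of the other construct, whose spread alone the fit then uses. Hosts called, 2 in the main analysis, numbered 4 with the DESeq2 test, 5 with no filter, 5 with the replicate block, 6 with the block and the GC and exon-length offset together (SNHG12, SNHG14, SNHG16, SNHG29, SNHG5 and SNHG8), and 2 to 6 with a library left out (6 without WT replicate 1; without d27 replicate 2 they were GAS5, SNHG16 and SNHG8). Calls over all genes, 1743 in the main analysis, were 2841 with the DESeq2 test, 2862 with no filter, 3575 with the replicate block, 3994 with the block and offset, and 768 (without d27 replicate 1) to 4851 (without WT replicate 1) with a library left out. Calls in the comparison lists, 10 in the main analysis, were 5 with library totals only, 31 with the DESeq2 test, 24 with no filter, 16 with a minimum count of 50, 32 with the replicate block, 22 with the offset, 52 with the block and offset, and 0 (without d27 replicate 1) to 31 (without WT replicate 1) with a library left out.

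Nothing in the labels says that replicate numbers pair the libraries, and deviations of same-numbered libraries correlated at 0.0962 across 14909 genes. With the replicate block, SNHG15, SNHG4 and SNHG8 passed beside SNHG16 and SNHG29.

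The median of the tested hosts, -0.21, was -0.07 with a minimum count of 50, -0.34 with the offset, -0.33 with the block and offset, and -0.34 to -0.11 with a library left out. The median of the snoRNAs inside the hosts was -0.64 with the offset, -0.73 with the block and offset, -1.61 with the block, and -2.74 to -0.48 with a library left out; its alternatives were chosen after seeing the data. The summed share difference was -0.0181 percentage points without SNHG16. SNHG14 changed sign to 0.00 with library totals, 0.04 with no filter, 0.78 with the offset and 0.80 with the block and offset, and ran from -0.18 to 0.15 with a library left out (0.13 without WT replicate 1). SNHG17 changed sign to -0.14 with the offset and -0.14 with the block and offset, and ran from -0.07 to 0.29 with a library left out (-0.01 without d27 replicate 1). The cause of these changes was not tested.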
